A study of Mus musculus with 9 samples.

Results

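Expression of the p53 gene, the direct targets of p53 and the inhibitors of the cell cycle that are used as readouts of p53 activity was examined in normal mouse intestinal organoids and in intestinal tumoroids. The 10 genes were Trp53, Cdkn1a, Cdkn2a, Mdm2, Phlda3, Gdf15, Ccng1, Trp53inp1, Zmat3 and Bax. They were chosen by symbol from the 50600 genes of the count table, with earlier results from the same libraries known, and which values led to the choice is not recorded. All of their levels and fold changes are therefore given as a description, with no p-value for any of them. Where the 10 are counted by the rule used for all genes, the count stands beside the share of all tested genes and supports nothing. All 10 were found in the table and were among the 16208 genes with a TPM (counts scaled by gene length and by library) of at least 1 in at least 1 library. Cdkn2a passed this filter through the tumoroids alone.

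p53 is a transcription factor that is kept low by the ubiquitin ligase MDM2 and is stabilised by DNA damage, oncogene activity and other stress. It then switches on genes that stop the cell cycle, above all Cdkn1a (p21), genes that lead to apoptosis, and Mdm2 itself, which closes a negative feedback loop. The Cdkn2a locus joins this pathway from outside, since its product p19Arf blocks MDM2 while its other product, p16Ink4a, inhibits the cyclin D kinases. In the intestine, p53 is best known for the response of crypt cells to irradiation, and the tumours of Apc mutant mice start from excess Wnt signalling.

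RNA was sequenced from 9 libraries in 3 groups of 3. The 6 organoid libraries came from the small intestine of WT mice and were kept for 24 hr in medium conditioned either by tumoroids (T-cM) or by WT organoids (WT-cM), mixed with fresh medium holding EGF, Noggin and R-spondin1. The 3 libraries of tumoroids, which are epithelial cultures of intestinal tumours, came from Apc1638N/+ mice and were untreated. In the labels the organoid donors are C57BL/6 and the tumoroid donors mixed, while the methods call all mice mixed. The labels list R-spondin1 in the medium of every library, while the methods leave it out for tumoroids. Experiments used lines from at least 3 mice per the methods, which do not tie libraries to mice. Tumour-bearing mice were older than the donors of normal organoids, and Apc1638N is a germline allele, present in every cell of the mouse. Genotype, age, conditioned medium and tumour origin thus differ between tumoroids and organoids, and strain and R-spondin1 may differ too, so that their parts in a difference cannot be told apart. Titles and treatment fields of the organoid libraries name opposite media. Group names here follow the titles, hence T-cM-titled and WT-cM-titled, and should the treatment field be right, every direction between these groups is inverted.

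Between 16541635 and 25170966 reads were counted per library. Levels below are CPM, read counts scaled to a common library size with edgeR's TMM factors, and 3 counts, the least taken as detected, correspond to 0.103 to 0.203 CPM. This limit covers counting error only. The 4 epithelial markers Epcam, Cdh1, Vil1 and Krt8 summed to 6523 to 7917 CPM in organoids and 4023 to 4630 CPM in tumoroids, where Vil1 was at 306 to 323 CPM against 1222 to 1630 CPM and Krt8 at 2144 to 2334 CPM against 3272 to 4591 CPM. Epcam was at 738 to 963 CPM in tumoroids and 1033 to 1151 CPM in organoids, and Cdh1 overlapped, at 721 to 1026 CPM against 731 to 882 CPM. The 7 fibroblast markers summed to at most 2.47 CPM in any library, with Col3a1 and Lum at 0, and the 3 endothelial markers to at most 2.02 CPM, with Kdr at 0. Of the 5 immune markers, Cd3e was at 0, and the sum was 0.634 to 1.83 CPM in organoids and 4.75 to 20.7 CPM in tumoroids, nearly all of it Cd68. Tumoroid 3 gave the highest fibroblast, endothelial and immune sums, at 2.47, 2.02 and 20.7 CPM, against at most 0.631, 0.272 and 6.28 CPM in tumoroids 1 and 2. It was also the highest library for Cdkn2a, Phlda3, Ccng1 and, narrowly, Zmat3. Without it the log2 fold change against WT-cM-titled organoids was 3.88 for Phlda3, 0.69 for Ccng1 and 2.06 for Zmat3, and the bound for Cdkn2a by the lowest tumoroid, given below, rests on tumoroid 2. The part of these shifts in the results on tumoroids was not tested. In bulk RNA, fewer cells of a type and less RNA per cell cannot be told apart.

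Compared with organoids in WT-cM-titled libraries, tumoroids held more RNA of Phlda3, Gdf15, Trp53inp1, Zmat3 and Cdkn2a, by over 4-fold in each, and about 1.90-fold more Trp53. The 2 genes most used to read p53 activity, Cdkn1a and Mdm2, differed least. In 8 of the 10 genes every tumoroid library lay above every organoid library, and 25.6% of all tested genes had this pattern. By the rule used for genes in general (log2 fold change past 1 in either direction, with an adjusted p under 0.05), 5 of the 10 were called against WT-cM-titled organoids, where 29.8% of all tested genes were called, and 5 against T-cM-titled organoids, where 31.2% were. With no threshold on the fold change, 8 of the 10 passed in each comparison, as did 41.9% and 44.5% of all tested genes. On log2(TPM + 1) values 8 were called in each by limma, beside 31.4% and 32.8% of all tested genes. Both comparisons share the tumoroid libraries. Cdkn2a is in each of these counts, and it had to be higher because it passed the TPM filter through the tumoroids alone. Since these contrasts were also known when the genes were listed, nothing is read from the counts.

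**Figure D1:**
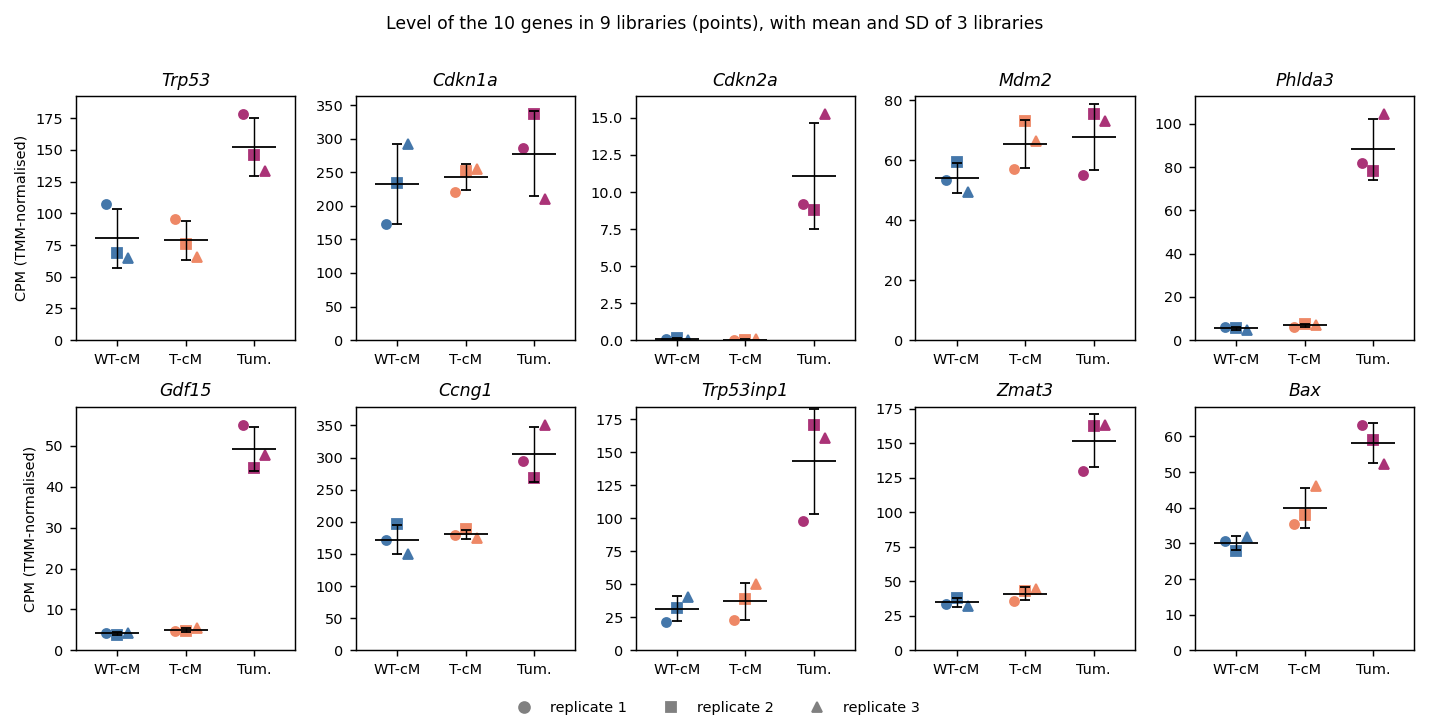
Level of each of the 10 genes in CPM (linear axis from 0) in WT-cM-titled organoids, T-cM-titled organoids and tumoroids (Tum.). Points are single libraries with the replicate number as symbol, and bars show the mean and SD of 3 libraries. The tumoroid points lie above all organoid points except for Cdkn1a and Mdm2.

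Trp53 itself (ENSMUSG00000059552.13, chromosome 11 of GRCm38, 69580359 to 69591873, plus strand) was at 107, 68.9 and 65.0 CPM in WT-cM-titled organoids 1, 2 and 3. T-cM-titled organoids had 95.7, 75.4 and 65.6 CPM, and tumoroids had 178, 146 and 133 CPM. Replicate 1 was the highest of each group, and all tumoroids lay above all organoids. The log2 fold change of tumoroids was 0.93 (standard error 0.23) against WT-cM-titled and 0.95 (standard error 0.23) against T-cM-titled organoids, beside medians of 0.15 and 0.16 over all tested genes. RNA level says nothing about the amount or activity of p53 protein, and the sequence of Trp53 in the tumoroids was not analysed here.

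Mdm2 (ENSMUSG00000020184.15, chromosome 10, 117688875 to 117710758, minus strand), the ubiquitin ligase that restrains p53 and is its target, was at 53.6, 59.5 and 49.5 CPM in WT-cM-titled organoids. It was at 57.0, 73.0 and 66.2 CPM in T-cM-titled organoids and at 55.0, 75.3 and 72.9 CPM in tumoroids. Tumoroids 1 and 3 lay within the organoid range and tumoroid 2 just above it, so that the groups overlapped. The log2 fold change of tumoroids was 0.32 (standard error 0.16) against WT-cM-titled organoids and 0.05 (standard error 0.16) against T-cM-titled ones. The second value is below the median of all genes, and its sign differed under 5 of 15 alternative settings.

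Cdkn1a (ENSMUSG00000023067.13, chromosome 17, 29090976 to 29100727, plus strand) encodes p21, the inhibitor of cyclin-dependent kinases through which p53 arrests the cell cycle. Its level was 172, 234 and 292 CPM in WT-cM-titled organoids, 221, 252 and 255 CPM in T-cM-titled organoids and 286, 336 and 210 CPM in tumoroids. The spread within WT-cM-titled organoids, from 172 to 292 CPM, took in all but 1 of the other libraries, tumoroid 2. The log2 difference of tumoroids was 0.25 (standard error 0.23) from WT-cM-titled and 0.19 (standard error 0.23) from T-cM-titled organoids, both close to the median of all genes. Per length, Cdkn1a nonetheless had the highest mean of the 10 transcripts in every group. The mean was 252 TPM in WT-cM-titled organoids, 270 TPM in T-cM-titled organoids and 442 TPM in tumoroids. In tumoroid 3, however, Cdkn1a was at 339 TPM and Ccng1 at 358 TPM. A part of it, 7.68% of the exon bases, overlaps a gene model on the opposite strand, AC167363.2, and the strand setting used in counting is not given in the sources used here.

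Cdkn2a (ENSMUSG00000044303.6, chromosome 4, 89274471 to 89294653, minus strand) was close to absent from organoids. The T-cM-titled libraries held 0, 0 and 2 counts and the WT-cM-titled libraries 1, 2 and 0 counts, all at or under the limit of 3 counts. Tumoroids held 203, 237 and 444 counts, or 9.19, 8.80 and 15.2 CPM, so that every tumoroid library expressed the gene. Their mean was at least 54.4-fold higher than 3 counts in the shallowest organoid library, and the lowest tumoroid was at least 43.3-fold higher. Both p16Ink4a and p19Arf come from this locus through separate first exons, and counts per gene do not tell them apart. Even in tumoroids it was the least abundant of the 10 genes per length, at 33.4 ± 11.4 TPM (SD, n = 3).

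Phlda3 and Gdf15 stood furthest apart among the genes detected in both tissues. Phlda3 (ENSMUSG00000041801.5, chromosome 1, 135766119 to 135769136, plus strand) encodes a small PH-domain protein that restrains AKT at the membrane. It was at 5.93, 5.41 and 4.91 CPM in WT-cM-titled organoids, 6.08, 7.32 and 6.98 CPM in T-cM-titled organoids and 82.1, 78.3 and 104 CPM in tumoroids. Every tumoroid was over 10 times the highest organoid, with a log2 difference of 4.03 (standard error 0.19, 16.3-fold) against WT-cM-titled and 3.70 (standard error 0.18) against T-cM-titled organoids. Gdf15 (ENSMUSG00000038508.7, chromosome 8, 70629393 to 70632456, minus strand) encodes a secreted stress cytokine of the TGF-beta superfamily that is induced both by p53 and by the integrated stress response. It was at 4.34, 3.83 and 4.29 CPM in WT-cM-titled organoids, 4.70, 4.81 and 5.58 CPM in T-cM-titled organoids and 55.2, 44.7 and 47.8 CPM in tumoroids. The tumoroid level was 11.8-fold (log2 3.56, standard error 0.18) and 9.77-fold (log2 3.29, standard error 0.18) that of the organoid groups, in the same order.

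Trp53inp1 and Zmat3 differed by about 4-fold. Trp53inp1 (ENSMUSG00000028211.11, chromosome 4, 11156431 to 11174379, plus strand), a stress-induced nuclear protein that acts with p53 and in autophagy, was at 21.9, 32.1 and 40.6 CPM in WT-cM-titled organoids. T-cM-titled organoids had 22.7, 38.7 and 50.4 CPM and tumoroids 97.7, 171 and 161 CPM. Replicate 1 was the lowest of all 3 groups, and the fold in tumoroids was 4.54 against WT-cM-titled (log2 2.18, standard error 0.34) and 3.85 against T-cM-titled organoids (log2 1.94, standard error 0.34). Zmat3 (ENSMUSG00000027663.12, chromosome 3, 32334792 to 32366014, minus strand) encodes a zinc finger protein that binds RNA. It was at 33.8, 38.2 and 32.3 CPM in WT-cM-titled organoids, 35.6, 43.1 and 44.6 CPM in T-cM-titled organoids and 130, 163 and 164 CPM in tumoroids. Its fold was 4.38 (log2 2.13, standard error 0.15) and 3.70 (log2 1.89, standard error 0.15), with a smaller spread between libraries than that of Trp53inp1.

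Ccng1 and Bax differed by less than 2-fold, although their libraries were separated too. Ccng1 (ENSMUSG00000020326.7, chromosome 11, 40748552 to 40755311, minus strand), which encodes cyclin G1, a partner of protein phosphatase 2A, was at 171, 196 and 150 CPM in WT-cM-titled organoids. It was at 180, 188 and 175 CPM in T-cM-titled organoids and 295, 268 and 351 CPM in tumoroids, a log2 fold change of 0.82 (standard error 0.16) and 0.75 (standard error 0.16). Bax (ENSMUSG00000003873.11, chromosome 7, 45461697 to 45466898, minus strand), the pore-forming effector of mitochondrial apoptosis, was at 30.8, 27.9 and 31.7 CPM in WT-cM-titled organoids. T-cM-titled organoids had 35.5, 38.0 and 46.1 CPM and tumoroids 63.3, 58.9 and 52.3 CPM. The 3 groups of Bax did not overlap at all, and the log2 difference of tumoroids was 0.95 (standard error 0.15) from WT-cM-titled and 0.54 (standard error 0.15) from T-cM-titled organoids. Bax shares 192 exon bases with Gm45808, which was counted at 0 in every library.

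**Figure D2:**
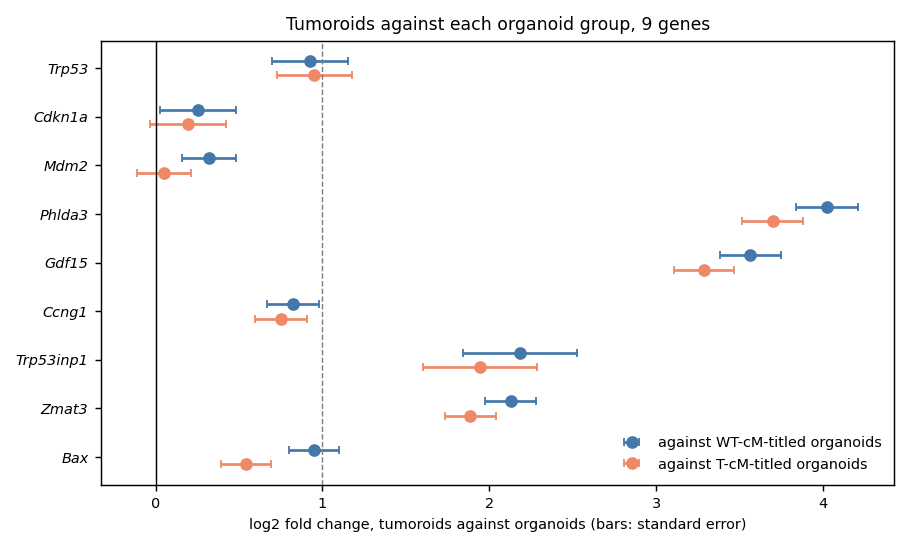
Log2 fold change of tumoroids against WT-cM-titled (blue) and T-cM-titled organoids (orange) for 9 genes, with standard errors as bars and a dashed line at 1. Cdkn2a is left out because the organoids held at most 2 counts. Phlda3 and Gdf15 lie between 3.29 and 4.03, while Cdkn1a and Mdm2 lie below 0.33.

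Per length, the order of the 10 genes changed between tissues. In both organoid groups Cdkn1a and Ccng1 led, followed by Bax and Trp53, whose libraries overlapped, then Mdm2, Trp53inp1, Phlda3, Zmat3, Gdf15 and Cdkn2a. Trp53inp1 and Phlda3 overlapped in both groups, and Phlda3 and Zmat3 in the WT-cM-titled group. In tumoroids Phlda3 stood in the third place, at 172, 188 and 240 TPM in tumoroids 1, 2 and 3. Gdf15 was at 93.3 ± 3.86 TPM, above Mdm2 at 47.4 ± 10.5 TPM (SD, n = 3). TPM levels are compared here within a group, since on that scale the median log2 fold change of all genes in tumoroids was itself 0.52 (WT-cM-titled organoids as the base). Neighbours in the tumoroid order overlapped for Cdkn1a and Ccng1, for Trp53 and Bax, and from Gdf15 through Trp53inp1, Mdm2 and Zmat3 to Cdkn2a, each with the next.

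Between the media, differences in the 10 genes were small. T-cM-titled organoids had the higher level in all 3 replicate pairs in 6 genes, Mdm2, Phlda3, Gdf15, Trp53inp1, Zmat3 and Bax, and this held for 18.9% of all tested genes. In each of the 6 genes pair 1 had the smallest difference. Bax differed by 0.20, 0.45 and 0.54 on the log2 CPM scale in pairs 1, 2 and 3, Phlda3 by 0.03, 0.43 and 0.50, and Mdm2 by 0.09, 0.30 and 0.42. In Phlda3, Gdf15 and Bax every T-cM-titled library also lay above every WT-cM-titled one, a pattern found in 5.13% of tested genes. The fitted log2 fold changes were 0.41 (standard error 0.10) for Bax, 0.34 (standard error 0.16) for Phlda3, 0.29 (standard error 0.18) for Gdf15 and 0.28 (standard error 0.09) for Mdm2. They were 0.25 (standard error 0.10) for Zmat3 and 0.23 (standard error 0.10) for Trp53inp1. Trp53, Cdkn1a and Ccng1 had no common direction in the pairs, with fold changes of 0.00, 0.10 and 0.09 on the log2 scale. Of the 10 genes 0 were called by the edgeR rule, where 1.10% of all tested genes were. At an unadjusted p under 0.05 there were 5, beside 22.0% of all tested genes, and with no threshold on the fold change 2, beside 10.1%. DESeq2 and limma voom also called 0.

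**Figure D3:**
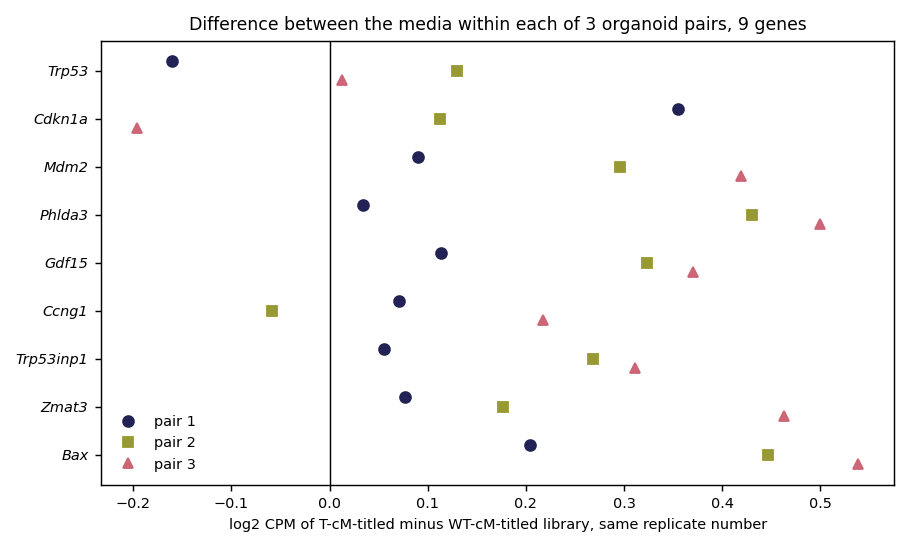
Difference in log2 CPM between the T-cM-titled and the WT-cM-titled organoid library of the same replicate number, for 9 genes and 3 pairs (symbols). Points right of the line at 0 were higher in the T-cM-titled library. All 3 points of Mdm2, Phlda3, Gdf15, Trp53inp1, Zmat3 and Bax lie to the right, with pair 1 nearest to 0.

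p53 acts by binding DNA near its target genes, and stretches before the transcription starts are shown. Sites outside the windows given next, whether further upstream or further into the gene, were not searched. RefSeq promoter windows on GRCm38.p6, from 250 bases before to 50 bases after a start, were found for 8 of the 10 genes, in 11 windows. Trp53inp1 and Zmat3 had no entry. The 10-base consensus of the p53 half-site, which reads the same on both strands, was searched in full and without a mismatch. It was found in 5 windows, of Bax, Ccng1, Cdkn1a, Mdm2 and Trp53, and in 8.36% of all 32851 promoter windows. A pair of exact half-sites at most 13 bases apart, the spacing of a full p53 response element, was found here only at the upstream Cdkn1a start. Its gap is 12 bases, and 24 of all windows (0.0731%) held such a pair. In that Cdkn1a window, the 10 bases right after the second half-site differ from the consensus at their first base only. The search therefore left them unmarked, and which of these stretches p53 binds was not tested. Phlda3, Gdf15 and Cdkn2a had 0 half-sites in their windows, and so did the window of the downstream Cdkn1a start. The RefSeq start of Phlda3 lies in no Gencode transcript of the gene. Such a match is a description of letters, and p53 binding was not measured. Half-sites are in capitals, and each sequence is read on the strand of its gene, 5′ to 3′.
Cdkn1a, chr17:29090881-29090962, plus strand, 98 to 17 bases before the start: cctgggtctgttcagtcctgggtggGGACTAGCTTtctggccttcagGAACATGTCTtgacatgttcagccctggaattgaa
Mdm2, chr10:117710910-117710969, minus strand, 211 to 152 bases before the start: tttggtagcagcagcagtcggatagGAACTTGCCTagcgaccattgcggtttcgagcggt
Bax, chr7:45467065-45467124, minus strand, 226 to 167 bases before the start: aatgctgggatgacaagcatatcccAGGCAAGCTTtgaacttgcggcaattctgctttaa
Ccng1, chr11:40755437-40755496, minus strand, 210 to 151 bases before the start: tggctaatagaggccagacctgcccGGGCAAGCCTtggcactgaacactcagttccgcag
Trp53, chr11:69580259-69580318, plus strand, 100 to 41 bases before the start: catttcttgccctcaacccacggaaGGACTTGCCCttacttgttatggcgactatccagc
Phlda3, chr1:135766025-135766084, plus strand, the 60 bases before the start: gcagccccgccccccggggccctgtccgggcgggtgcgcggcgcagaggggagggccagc
Gdf15, chr8:70632457-70632516, minus strand, the 60 bases before the upstream start: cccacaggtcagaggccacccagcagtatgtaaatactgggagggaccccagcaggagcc

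Other target genes of p53 moved in both directions in tumoroids. Of 34 such genes, all tested and listed with earlier results known, 14 were higher and 4 lower in tumoroids at an adjusted p under 0.05 (edgeR) with WT-cM-titled organoids as the base, where 23.4% of all tested genes were higher and 18.5% lower. Against T-cM-titled organoids 16 were higher and 5 lower, beside 25.3% and 19.2% of all genes. Ak1, Dram1, Pvt1 and Trp53cor1 reached the TPM filter through the tumoroids alone, so that they had to be higher there. Of the other 30 genes 11 were higher and 4 lower against WT-cM-titled and 12 higher and 5 lower against T-cM-titled organoids. The median log2 fold change of the 30 was 0.48 and 0.56 in these comparisons, against 0.15 and 0.16 over all tested genes. In 13 of the 34, Ak1, Dram1 and Pvt1 among them, all tumoroids lay above all organoids, beside 25.6% of all tested genes. In 5 of the 34 all lay below, beside 20.2% of all tested genes.

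Plk2, a Polo-like kinase, rose from 15.7, 11.9 and 14.4 CPM in WT-cM-titled organoids to 77.7, 101 and 120.5 CPM in tumoroids (log2 2.83, standard error 0.20, adjusted p = 1.1e-05). Eda2r, a death receptor of the TNF family, rose from 4.45 ± 1.76 to 42.7 ± 9.46 CPM (mean ± SD, n = 3, log2 3.27, standard error 0.33, adjusted p = 6.2e-05). The long non-coding RNA Pvt1, which lies next to Myc, was at 0.582 ± 0.403 CPM in WT-cM-titled organoids and 10.1 ± 2.01 CPM in tumoroids (log2 4.11, standard error 0.53), given with no test since the filter let it in through the tumoroids. Sesn1, a sestrin that restrains mTORC1, went the other way, from 70.1 ± 10.2 to 14.9 ± 0.777 CPM (log2 −2.23, standard error 0.18, adjusted p = 2.4e-05). Each of the 4 had its tumoroids apart from all organoids, and Plk2, Eda2r and Sesn1 stayed past the test under all 15 alternatives. The other genes that fell were Sfn (14-3-3 sigma, an inhibitor of mitotic entry), Plk3 and the death receptor gene Fas, by 1.57, 1.26 and 1.14 on the log2 scale. Dram1 rests on 10, 4 and 40 tumoroid counts against at most 1 count in each organoid library.

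**Figure D4:**
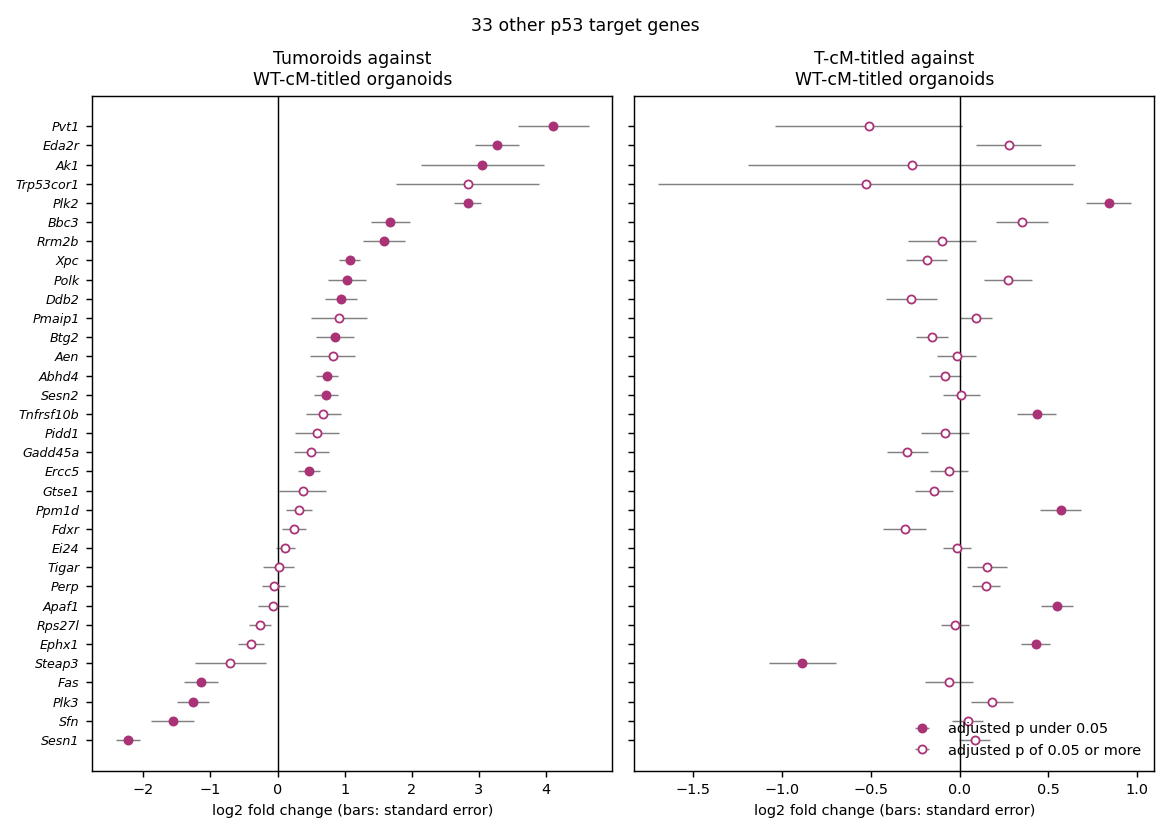
Log2 fold change with standard error of 33 other p53 target genes in tumoroids against WT-cM-titled organoids (left) and of T-cM-titled over WT-cM-titled organoids (right), ordered by the left panel, on axes of different range. Filled points passed an adjusted p under 0.05 (edgeR). Dram1 is left out for its low counts, and Ak1, Pvt1 and Trp53cor1 reached the TPM filter through the tumoroids alone. Sesn1 is the lowest and Pvt1 the highest on the left.

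In organoids, 5 of the 34 genes were higher in the T-cM-titled group and 1 lower at an adjusted p under 0.05, beside 5.03% and 5.05% of all tested genes, and the median of the list was −0.02. Plk2 led here as well, at 21.8, 27.3 and 25.6 CPM in the T-cM-titled libraries (log2 0.84, standard error 0.12, adjusted p = 2.9e-05). Apaf1, the scaffold of the apoptosome, was at 65.5, 82.1 and 63.6 CPM against 49.5, 57.8 and 39.4 CPM (log2 0.55, adjusted p = 1.3e-04). Both genes had all T-cM-titled libraries above all WT-cM-titled ones. Ephx1, an epoxide hydrolase, had a log2 fold change of 0.43 (adjusted p = 7.9e-04, past in 8 of 12 alternatives) and was higher in all pairs, while the group ranges overlapped. Ppm1d, the phosphatase WIP1, and Tnfrsf10b, a TRAIL receptor, were the other genes that rose (log2 0.57 and 0.43), and Steap3, a metalloreductase, fell by 0.88. All 6 calls were lost without the replicate block, on TPM values and without replicate 2. This holds for the organoid comparison as a whole, in which 0 of all tested genes passed in the first 2 settings and 1 passed in the last.

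Regulators and relatives of p53 were examined next. Of 19 listed genes 18 were tested, and 3 were higher and 2 lower in tumoroids at an adjusted p under 0.05, with WT-cM-titled organoids as the base. As for the lists that follow, these counts stand beside 23.4% higher and 18.5% lower among all tested genes, with 25.3% and 19.2% when T-cM-titled organoids are the base and 5.03% and 5.05% between the media. Ppp1r13l, which encodes the p53 inhibitor iASPP, rose from 9.44 ± 1.05 to 32.9 ± 7.89 CPM (log2 1.80, standard error 0.22, adjusted p = 1.8e-04), and Trp53bp1, a DNA damage adaptor, from 17.3 ± 3.98 to 62.3 ± 12.9 CPM (log2 1.84, adjusted p = 3.1e-04). The ubiquitin ligase gene Rchy1 fell by 0.75 (adjusted p = 0.0024), a call lost on TPM values (log2 −0.21, adjusted p = 0.20), where the median of all genes is higher, and the kinase gene Hipk2 by 1.07. Trp63 was at 0.317 and 0.111 CPM in tumoroids 1 and 2 and at 36.6 CPM in tumoroid 3, with at most 1 count in any organoid library. It reached the TPM filter through tumoroid 3 alone, so its place among the 3 higher genes is no test, and without it 2 of 17 genes were higher and 2 lower. Against T-cM-titled organoids 4 genes were higher and 3 lower, and without Trp63 3 of 17 were higher and 3 lower. Between the media, Rfwd2, the ubiquitin ligase COP1, was higher in the T-cM-titled group (log2 0.30, adjusted p = 0.016, past in 7 of 12 alternatives), and 0 genes were lower, with 7 of the 18 at an unadjusted p under 0.05. Next by p were Ppp1r13l and Sirt1, at 0.35 and 0.29 (adjusted p = 0.089 and 0.090).

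Among the other Cdk inhibitors and the pocket proteins, Rb1 stood out in tumoroids. This gene for the retinoblastoma protein, the brake on E2F that p16Ink4a acts through, fell from 115 ± 20.2 to 39.2 ± 5.85 CPM (log2 −1.55, standard error 0.23, adjusted p = 5.1e-04). Cdkn1b (p27) was higher by 0.44 (adjusted p = 0.021), a call that was lost in 6 of 15 alternatives, among them each one that left out a WT-cM-titled library. The other 6 of the 8 genes did not pass, Cdkn2d being at 0.82 (adjusted p = 0.063) and Cdkn1c at 0.70 (adjusted p = 0.20). With T-cM-titled organoids as the base 1 gene was again higher and 1 lower. Between the media Cdkn1c, which encodes the inhibitor p57, was called, at 5.55, 12.3 and 11.8 CPM in the T-cM-titled and 3.57, 2.61 and 5.22 CPM in the WT-cM-titled libraries (log2 1.35, standard error 0.20, adjusted p = 2.6e-05). The groups were separate, but pair 1 differed least. Cdkn2c (p18) was lower by 0.51 on the log2 scale (adjusted p = 0.016, past in 6 of 12 alternatives), and Rbl1 was at −0.30 (adjusted p = 0.053).

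The cyclins and kinases on which these inhibitors act were tested in all 12 listed members. In tumoroids 3 were higher and 0 lower against either organoid group, with 3 and 4 at an unadjusted p under 0.05. Ccnd1, the cyclin D1 gene and a Wnt target, rose from 69.8 ± 19.5 to 871 ± 275 CPM (log2 3.64, standard error 0.33, adjusted p = 4.0e-05), and its kinase Cdk6 from 25.7 ± 4.10 to 180 ± 53.4 CPM (log2 2.81, adjusted p = 2.8e-05). Cdk4 was higher by 0.87 (adjusted p = 0.015), and without WT-cM-titled replicate 2 or 3 it was at 0.75 and 0.81 (adjusted p = 0.065 and 0.056), and Ccnb1 was at −0.52 (adjusted p = 0.33). Between the media 5 genes were lower in the T-cM-titled group and 0 higher (5.05% and 5.03% of all tested genes), and 10 of the 12 were lower in all 3 pairs, as were 22.3% of all tested genes. Ccnd2, Cdk1 and Ccna2 fell by 0.48, 0.47 and 0.44 (adjusted p = 1.9e-04, 0.0012 and 0.0032, Ccna2 being past in 8 of 12 alternatives), and Cdk4 and Ccnb2 by 0.30 and 0.35. Cdk1 was at 88.7, 39.4 and 36.3 CPM in T-cM-titled and 102, 65.9 and 52.6 CPM in WT-cM-titled libraries, so that the groups overlapped and the difference was seen within pairs.

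Genes of the mitochondrial death pathway, in which Bax acts, differed in both directions in tumoroids. Of 18 other Bcl2 family and caspase genes 8 were higher and 6 lower than in WT-cM-titled organoids (23.4% and 18.5% of all tested genes), and the same numbers held against T-cM-titled organoids. Bak1, the other pore-forming effector, fell from 197 ± 7.89 to 56.8 ± 8.48 CPM (log2 −1.79, standard error 0.15, adjusted p = 2.7e-05), opposite to the difference described for Bax. Cytochrome c (Cycs) fell by 1.74 (adjusted p = 3.9e-05), and Bad and Casp9 were among the other genes that fell. Bcl2l11, which encodes the BH3-only protein BIM, rose from 8.97 ± 1.07 to 41.8 ± 12.8 CPM (log2 2.22, adjusted p = 1.0e-04). The genes that rose held both antiapoptotic members, Bcl2 and Bcl2l1, and proapoptotic ones, Bok, Bik, Bmf, Bid and Diablo. Between the media 2 genes were higher in the T-cM-titled group and 0 lower, with 8 of the 18 at an unadjusted p under 0.05. One of the 2 was Mcl1, an antiapoptotic gene, at 0.24 (adjusted p = 0.049, past in 3 of 12 alternatives), and Bcl2 was at −0.63 (adjusted p = 0.14).

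Genes that act on the Cdkn2a locus or lie beside it were set beside Cdkn2a. Of 10 tested, 4 were higher and 0 lower in tumoroids with WT-cM-titled organoids as the base (8 at an unadjusted p under 0.05, beside 8104 of the 16208 tested genes), and 6 were higher and 1 lower against T-cM-titled organoids. Cbx7, a Polycomb subunit that represses the locus, rose from 20.7, 13.9 and 19.3 CPM to 56.7, 72.3 and 35.5 CPM (log2 1.61, standard error 0.28, adjusted p = 0.0015). Mtap, a neighbour of Cdkn2a on chromosome 4, rose from 30.3 ± 10.4 to 72.4 ± 10.6 CPM (log2 1.26, adjusted p = 0.0086), and the repressor gene Tbx3 was at 0.77 (adjusted p = 0.027, lost without 1 tumoroid or either of 2 organoid libraries). Tbx2, the other of the 4, held 10, 32 and 7 tumoroid counts against at most 1 per organoid library, at least 3.08-fold by the mean and 1.18-fold by the lowest tumoroid. It reached the TPM filter through tumoroid 2 alone, so its place in either count is no test. Without it 3 of 9 genes were higher against WT-cM-titled organoids, and 5 of 9 were higher and 1 lower against T-cM-titled organoids. Between the media Cbx7 was higher by 0.43 (adjusted p = 0.025) and Ezh2, the Polycomb methyltransferase, lower by 0.29 on the log2 scale (adjusted p = 0.047). Each was past in 4 of 12 alternatives, and neither by limma voom or DESeq2. E2f1 was at −0.36 (adjusted p = 0.11).

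Since Gdf15 is also a target of the integrated stress response, 9 targets of that pathway were examined. Ppp1r15a (GADD34), the phosphatase subunit that ends the response, rose in tumoroids from 10.3, 10.9 and 12.9 CPM to 42.5, 68.3 and 29.0 CPM (log2 2.04, standard error 0.31, adjusted p = 6.6e-04). Ddit4 (REDD1), an inhibitor of mTORC1, was higher by 1.34 (adjusted p = 0.010), and Vldlr by 1.67 (adjusted p = 0.042, lost in 4 of 15 alternatives). These 3 also passed against T-cM-titled organoids, and 0 were lower in either comparison, with 3 at an unadjusted p under 0.05 in each. The other 6 did not pass, among them Ddit3 (CHOP) at 1.12 (adjusted p = 0.15), which was at 0.03 without tumoroid 2. Between the media 0 of the 9 passed the edgeR test, with 1 at an unadjusted p under 0.05, Ppp1r15a at 0.32 (adjusted p = 0.12). Ddit4 and Ddit3 were at −0.13 and 0.18 there.

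The tested genes with the profile most like that of 4 of the genes were found over the 9 libraries, by the root mean square (RMS) difference of log2 CPM centred on each gene, among 10668 genes with a mean of at least 100 counts. Nearest to Trp53 were Exosc1, Gstcd and Telo2, at an RMS difference of 0.08, 0.08 and 0.09, against an SD of 0.51 for Trp53 itself. Nearest to Mdm2 were Phf3, Atp6ap1 and Aftph (0.04, 0.05 and 0.08, SD 0.21), and nearest to Cdkn1a were Zfp707, Cd63 and Pard6b (0.09, 0.09 and 0.10, SD 0.27). For Cdkn2a the nearest were Zbtb10, Crip2 and Arhgap23 (0.37, 0.44 and 0.53, SD 3.02). The 9 libraries fall into 3 groups, so the profiles compared hold the steps between groups as well as the spread within them.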

How the data were processed

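Poly(A) RNA was sequenced from 9 libraries, and total counts per library are given above. Per the labels and methods, the authors aligned the reads, made with a stranded kit, to mm10 with STAR and used Gencode genes (release M13). The authors deposited raw gene counts without any normalisation, and TPM, which the authors scaled by gene length and library. The counting tool and its strand setting are not given in the sources used here. Gene positions were taken from Gencode M21 on the same build (GRCm38).

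The 10 genes and the lists set beside them were chosen with earlier results of these data known. Groups and replicate numbers came from the titles. All genes that reached 1 TPM in any library were fitted with edgeR 4.0.16 in R 4.3.3 (TMM factors, quasi-likelihood F test in the form used before version 4, Benjamini-Hochberg adjustment over all tested genes). The organoid groups were compared over 6 libraries blocked by replicate number, and tumoroids over 9 libraries without one, as in the study's models. The study's model has a sample effect, and what the sample numbers stand for is not given in the sources used here. The numbers were taken to pair the organoid libraries after that sample effect. Same-numbered libraries also deviated together, with Pearson's r of 0.546, 0.338 and 0.547 across genes, values that come from these same libraries. P-values measure the spread between these cultures. The script was tested on simulated data. Named genes were the 10, those of each list that ranked first by p (at most 4 for tumoroids with WT-cM-titled organoids as the base, at most 3 between the media), and the 3 nearest profiles of 4 genes. Results for some genes of the lists are not reported here. Others named were picked after their values were seen, as genes that passed the test or that complete a small count.

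Alternatives were limma 3.58.1 voom, DESeq2 1.42.0, edgeR's current method, limma on log2(TPM + 1), fits without the block or with it added, scaling by RLE or upper-quartile factors, filtering by edgeR's rule or not at all, calls at any fold change, and fits lacking 1 replicate.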

Additional observations from a re-analysis of the deposited data

How the results depend on the processing

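Over 13 alternatives between the media and 16 in each tumoroid comparison, the 10 genes kept the direction of every called value. Between the media 0 of them were called, and 2 with no fold change threshold (10.1% of all tested genes). The count of other p53 target genes past the test, 6 of 34, was 0 on log2(TPM + 1), 0 with no replicate block, and 0 to 9 with 1 replicate pair left out (0 without replicate 2). In tumoroids 5 of the 10 genes were called against each organoid group, and 8 in each on log2(TPM + 1) (31.4% and 32.8% of all tested genes) and 8 in each with no fold change threshold (41.9% and 44.5%). The replicate block over all 9 libraries left 5 called in each and moved the other targets from 18 to 21 and from 21 to 25. All other counts of the 10 genes and of the other p53 targets stayed within 1.5 times the main one. Counts of the other lists were not recomputed, and between the media Rfwd2, Cdkn2c, Mcl1, Cbx7 and Ezh2 were past the test in 3 to 7 of 12 alternatives. On TPM the median of all genes shifted from 0.15 to 0.52 against WT-cM-titled organoids and from 0.16 to 0.51 against T-cM-titled ones, and 79.9% and 79.4% of the genes past the test were higher, against 55.8% and 56.9%. Upper-quartile factors moved the median to 0.25 and 0.27. Opposite signs were seen only for differences smaller than 2 standard errors, in Trp53 (5 of 12 alternatives), Cdkn1a (1 of 12) and Cdkn2a (2 of 11) between the media and in Mdm2 (5 of 15) against T-cM-titled organoids. The low counts of Cdkn2a in organoids limit its fold to a lower bound.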
